A study of Saccharomyces cerevisiae with 56 samples.

Results

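The genes described here are the nuclear-encoded subunits of the respiratory chain and the ATP synthase of Saccharomyces cerevisiae, with cytochrome c. They were chosen by name, 36 of the 7132 genes listed in the files. Complex II has 4 of them, complex III 9, complex IV 9, the F1 part of complex V 5 and its stalk and membrane part (Fo) 8, and CYC1 encodes cytochrome c. QCR9 (YGR183C) had no position left after the authors' masking and so has no value, which leaves 35 genes that could be measured. The study used ribosome profiling, which sequences the mRNA fragments that ribosomes protect, and RNA-seq of rRNA-depleted total RNA from the same samples to ask how cycloheximide (CHX), an inhibitor of translation elongation, alters such measurements.

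A prototrophic CEN.PK MATa strain was sampled at 16 time points of 1 yeast metabolic cycle (YMC) in a glucose-limited chemostat, always with CHX. Amino acid starvation was followed in BY4741 (MATa his3Δ1 leu2Δ0 met15Δ0 ura3Δ0) and its derivatives. In each strain 1 culture in minimal glucose medium with amino acids was divided. The starved part was spun down, taken up in that medium without amino acids and kept there for 20 min, and the replete part stayed in its own medium, so the spin and the change of medium cannot be told apart from the lack of amino acids. The 4 strains with intact Dot6, Tod6 and Stb3 that were harvested with CHX were BY4741, yJW1861 (nop2::klNOP2 with an added PCCW12-NOP2 copy), yJW1862 (the same with PNOP2-NOP2) and yJW1863 (a PNOP2-EGFP reporter with NOP2 in place). All share the auxotrophies of BY4741. BY4741 was also harvested without CHX, by filtration instead of centrifugation, and the methods state no treatment with the solvent alone for these samples. CHX, its solvent and the mode of harvest therefore cannot be told apart. The last pair is labelled yJW1864, with deletions of the repressors DOT6, TOD6 and STB3. The 2 mRNA libraries labelled yJW1864 held 4 to 9 counts of DOT6 and 0 to 1 of TOD6, against 2312 to 4878 and 58 to 1025 in the other BY4741-derived mRNA libraries. They also held 921 to 1062 counts of STB3, against 736 to 1624 in the others, so STB3 goes against the label. Of the markers in that genotype, URA3 had 711 to 1052 counts in the libraries labelled yJW1864, against 0 to 1 in the others, but LEU2, the stated marker at DOT6, had 0 to 1 in both.

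The respiratory chain passes electrons to oxygen and pumps protons, and the ATP synthase uses the proton gradient to make ATP. In yeast, complex II (succinate dehydrogenase) and the NADH dehydrogenases feed ubiquinone, complex III (cytochrome bc1) passes the electrons to cytochrome c, and complex IV (cytochrome c oxidase) reduces oxygen. Most subunits are made on cytosolic ribosomes and imported, and a few core subunits are encoded in the mitochondrial genome, so both sets must come together in each complex. In the YMC, cells alternate between an oxidative phase (OX), when dissolved oxygen drops because the culture respires, and reductive building (RB) and reductive charging (RC) phases.

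Libraries held 14534718 to 23688910 mRNA counts and 10131590 to 27416058 footprint counts on genes in the YMC, and 9573565 to 14748811 mRNA counts and 3631611 to 20029266 footprint counts in the starvation samples. Levels are given as RPKM, reads scaled to the counted length of the coding sequence and to the size of the library. RPKM are shares of a library, and in a culture a change in some of the cells cannot be told apart from a smaller change in all of them. Translation efficiency (TE) is footprint RPKM over mRNA RPKM. Short genes rest on few positions, since the ends of each coding sequence were masked: in 44 libraries only 72 bases were counted in COX9 and ATP18, 75 in COX7 and 81 in ATP15.

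In the YMC the mRNAs of these genes were abundant throughout and dropped together late in the OX phase. COX5B did not reach the minimums of 128 mRNA counts and 1 footprint in every sample, which left 34 genes here. Each time point is 1 sample without a replicate, so the values are a description and carry no test. The median of the 34 mRNAs was 646 RPKM at time point 1, 594 at 2, 513 at 3, 487 at 4, 398 at 5, 296 at 6, 277 at 7, 278 at 8, 270 at 9, 190 at 10, 160 at 11, 593 at 12, 665 at 13, 627 at 14, 583 at 15 and 677 at 16. It was thus highest in the RB phase at both ends of the cycle, drifted down through RC, and was lowest at time point 11, the last OX sample. The genes together took 2.38% of the mRNA counts at time point 1, 0.583% at time point 11 and 2.49% at time point 16, and 3.53%, 0.71% and 3.34% of the footprint counts at the same points.

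**Figure D1:**
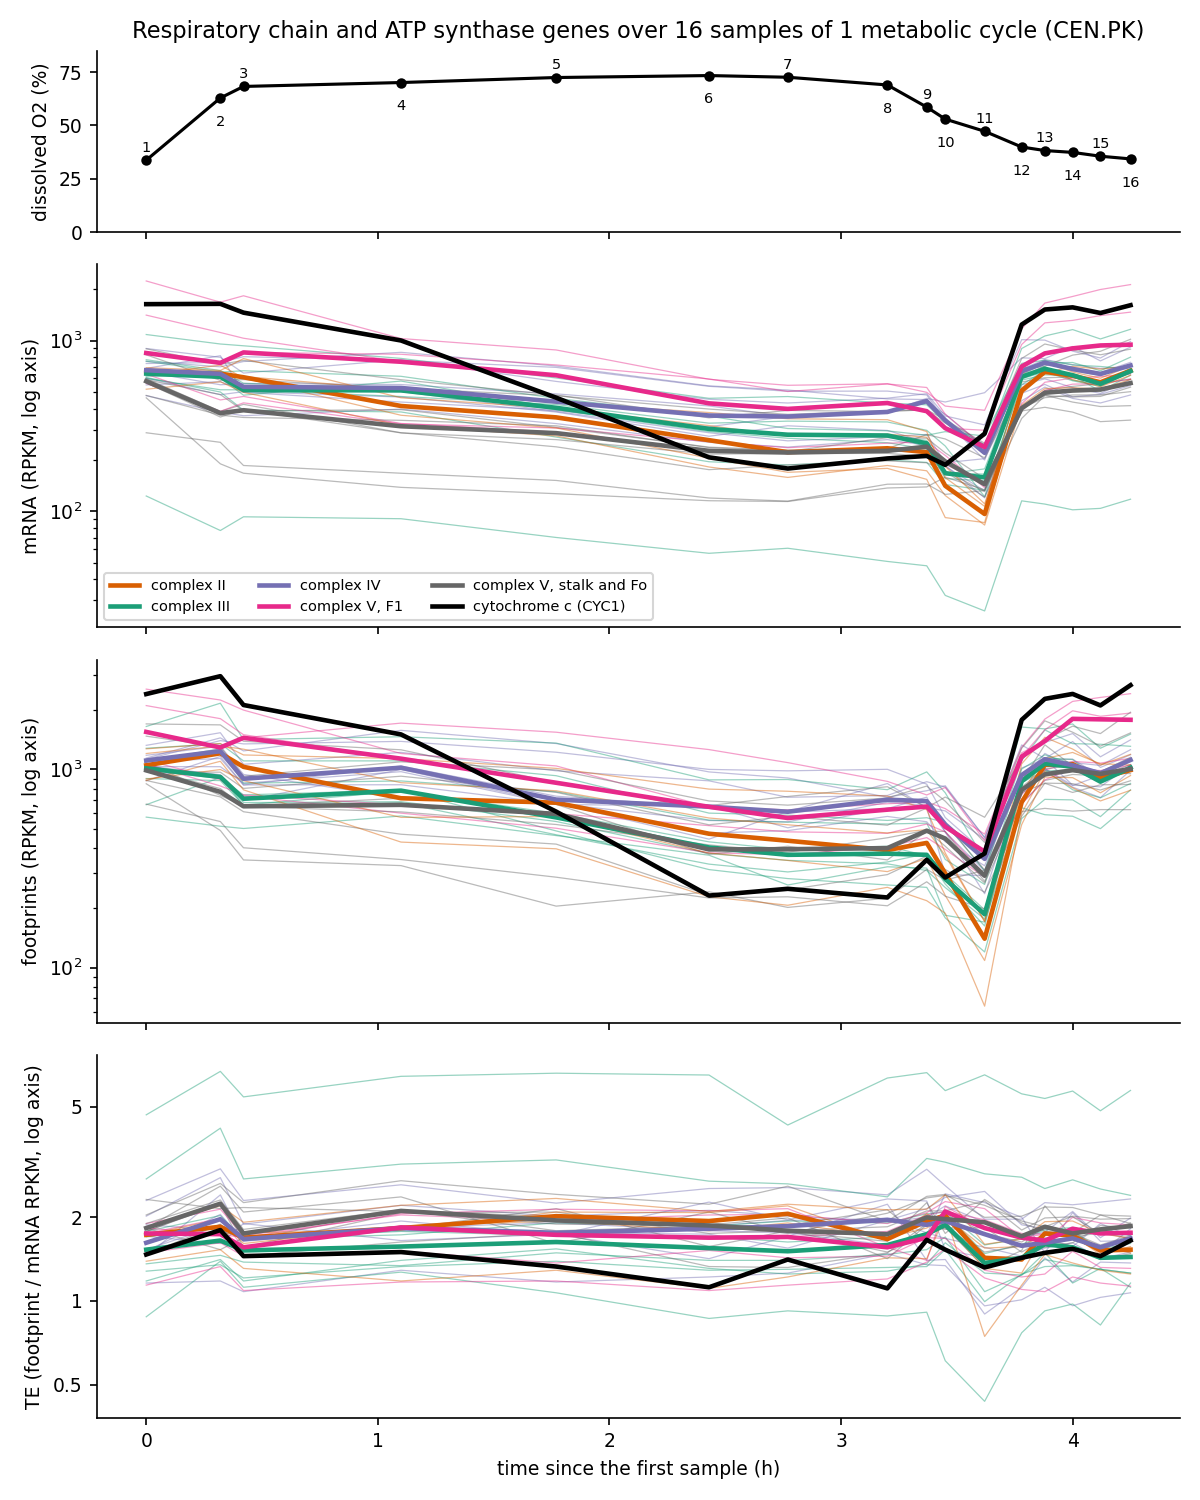
Dissolved oxygen (percent, with time point numbers), mRNA and footprints (RPKM, log axes) and TE (log axis) of 34 genes against time since the first sample (h). Thin lines are single genes and thick lines the median of each complex. In the mRNA panel the medians dip at time point 11, CYC1 (black) leaves its plateau of 1643 RPKM earlier and reaches 178 RPKM at time point 7, and the TE medians stay within a narrow band.

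The mRNA range of a gene, its highest over its lowest level in the 16 samples, had a median of 4.41-fold over the 34 genes and of 2.72-fold over the 4838 genes that passed the same minimums. A range of at least 4-fold was reached by 22 of the 34 genes, and by 29.7% of all genes. The mRNA was lowest at time point 11 in 28 of the 34 genes (32.3% of all genes) and footprints in 31 of them (25.9% of all genes). Without time point 11 the median mRNA range was 3.35-fold.

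The return was fast. Time point 12 was taken 9.6 min after time point 11, and between them the median mRNA ratio was 3.17, from 1.60 for COX9 to 6.16 for SDH1. More than 2-fold was reached by 33 of 34 genes, the exception being COX9, and by 13.5% of all genes, whose median ratio was 1.21. Complex II had the steepest return with a median of 5.51, followed by CYC1 with 4.36, complex III with 3.93, complex IV with 3.02 and complex V with 2.93. Footprints followed, with a median ratio of 3.06. TE at time point 12 over time point 11 had medians from 0.903 in the stalk and Fo genes to 1.08 in CYC1, the others lying between.

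Time point 11 (OX) was also set against time point 4 (RC). Relative to the median of all genes, mRNA at time point 11 over time point 4 was −1.34 (median log2), and 29 of 34 genes lay below −1, against 18.5% of all genes. The 5 that did not were COX9 (0.31), ATP20 (0.08), TIM11 (−0.21), ATP14 (−0.81) and ATP7 (−0.98). Footprints were −1.97, with 32 of 34 genes below −1 against 24.7% of all genes. TE was −0.56, with 3 of 34 genes below −1 (QCR6 −1.90, COX9 −1.23, SDH1 −1.01) against 5.04% of all genes. Before the subtraction, the median of all genes itself moved by −0.13 (mRNA), 0.24 (footprints) and 0.35 (TE).

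The complexes differed in amplitude. Complex II had the widest mRNA range of the complexes, with a median of 7.11-fold over its 4 genes. SDH1, the flavoprotein subunit that oxidises succinate, had 85.9 RPKM at its lowest (time point 11), a median of 447 and 718 at its highest (time point 2), and its footprints ranged 17.2-fold, the widest footprint range among the 34 genes. Its mRNA range was 8.36-fold, and SDH2, the iron-sulfur subunit, and the membrane anchors SDH3 and SDH4 had mRNA ranges of 7.03-fold, 7.10-fold and 7.13-fold. In footprints SDH1 stood further from SDH2, SDH3 and SDH4, which had 8.51-fold, 7.67-fold and 9.20-fold.

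Complex III genes had a median mRNA range of 4.75-fold, and 7 of the 8 measured were lowest at time point 11. QCR6, an acidic subunit next to cytochrome c1, was the narrowest of all 34 mRNAs, with 276 RPKM at its lowest, a median of 636 and 767 at its highest (2.78-fold). QCR8, which contributes to the ubiquinone site, had by far the lowest mRNA of the complex, with 26.1 RPKM at its lowest, a median of 83.8 and 123 at its highest. Its TE was 4.30 at the lowest, 5.72 at the median and 6.71 at the highest, above every other measured member of the complex at the median. Averaged over the cycle, mRNA levels in complex III differed 9.43-fold between QCR7 (752 RPKM) and QCR8 (79.8 RPKM), and footprints 2.81-fold between QCR10 (1277 RPKM) and QCR8 (454 RPKM). Averaged over 4 replete strains with CHX, mRNA differed 3.28-fold between QCR7 (345 RPKM) and RIP1 (105 RPKM), and QCR8 had 118 RPKM. Why QCR8 stood lower in the cycle was not tested.

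Complex IV had the narrowest mRNA range of the complexes, with a median of 3.28-fold over 8 genes. COX4 was lowest at time point 11 with 120 RPKM, had a median of 372 and was highest at time point 13 with 534. COX13 had 767 RPKM at time point 4 and 480 at time point 9, before 245 at time point 11. COX9, in contrast, had its lowest mRNA of 313 RPKM at time point 6 and was already at 495 RPKM at time point 11. Leaving out COX7, COX9, ATP15 and ATP18, a choice made after the data had been seen, changed the median range of all the genes to 4.58-fold for mRNA and 1.53-fold for TE.

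In the ATP synthase, the F1 genes had a median mRNA range of 4.37-fold and the stalk and Fo genes one of 3.99-fold. ATP2, the catalytic beta subunit, was the most abundant of the F1 mRNAs, with 391 RPKM at the lowest, a median of 1101 and 2237 at the highest. ATP20 and TIM11, Fo subunits g and e that join ATP synthase dimers, and CYC1 left the common course. ATP20 had 462 RPKM at time point 1, 190 at time point 2, 114 at time point 7 (its lowest) and 134 at time point 11. TIM11 was also lowest at time point 7, with 115 RPKM. CYC1 mRNA was 1643 RPKM at time point 2, 1002 at 4, 463 at 5, 178 at 7, 285 at 11 and 1242 at 12, and its range of 9.23-fold was the widest of the 34 mRNAs. These 3 mRNAs were therefore lowest at time point 7 in RC, while oxygen was high, as COX9 was at time point 6. CYC1 stayed close to its lowest value in OX, with 211 RPKM at time point 9 and 187 RPKM at time point 10.

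TE moved little in the cycle. The TE range had a median of 1.54-fold over the 34 genes and of 2.18-fold over all genes, and no member reached 4-fold, against 12.6% of all genes. A range also takes in counting error, which is larger in genes with few counts. The median mRNA at time point 1 was 646 RPKM in the 34 genes and 44.6 RPKM in all genes, which were not matched for level. The narrowest was RIP1, the Rieske iron-sulfur protein, with 1.59 at the lowest, 1.82 at the median and 2.09 at the highest, a 1.31-fold range with a 95% counting interval of 1.24 to 1.39. The widest was QCR6, with 0.435 at time point 11, 0.916 at the median and 1.39 at time point 2, a 3.20-fold range with an interval of 2.97 to 3.46. SDH1 had a TE range of 2.75-fold (2.62 to 2.90), with 0.745 at time point 11 directly after its highest value of 2.05 at time point 10. TE was highest at time point 10 in 14 of the 34 genes (24.6% of all genes) and lowest at time point 11 in 12 of them (9.53% of all genes). These intervals cover counting error only.

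Oxygen and mRNA were not in a simple relation, since the cycle passed through the same oxygen level with different mRNA levels. At time point 9 oxygen was 58.61% and at time point 2 it was 62.88%, but mRNA at time point 9 was 0.534 of that at time point 2 (median), and lower in all 34 genes, with CYC1 at 0.129. The median of all genes in the same comparison was 1.07. At time point 16, with 34.34% oxygen, against time point 1, with 33.73%, the median absolute log2 difference was 0.08 for mRNA, with 0.42 for COX9 as the largest, against 0.13 for all genes. The beginning and the end of the cycle thus gave the same levels within a small difference.

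Across the 16 samples, which share 1 culture and are not independent, the Spearman coefficient of mRNA with oxygen was negative in all 34 genes, with a median of −0.61, from −0.87 for ATP20 to −0.17 for COX13. The lowest oxygen was in RB (33.73% at time point 1), below the 47.28% at time point 11 in OX. No coefficient over all genes is given beside these, so the sign cannot be called particular to the 34 genes. For footprints the median was −0.53, and for TE it was 0.30. After each value had been divided by the median of all genes in its sample, mRNA had a median of −0.51, footprints −0.17 and TE 0.76, so the footprint and TE coefficients depend on this scaling.

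**Figure D2:**
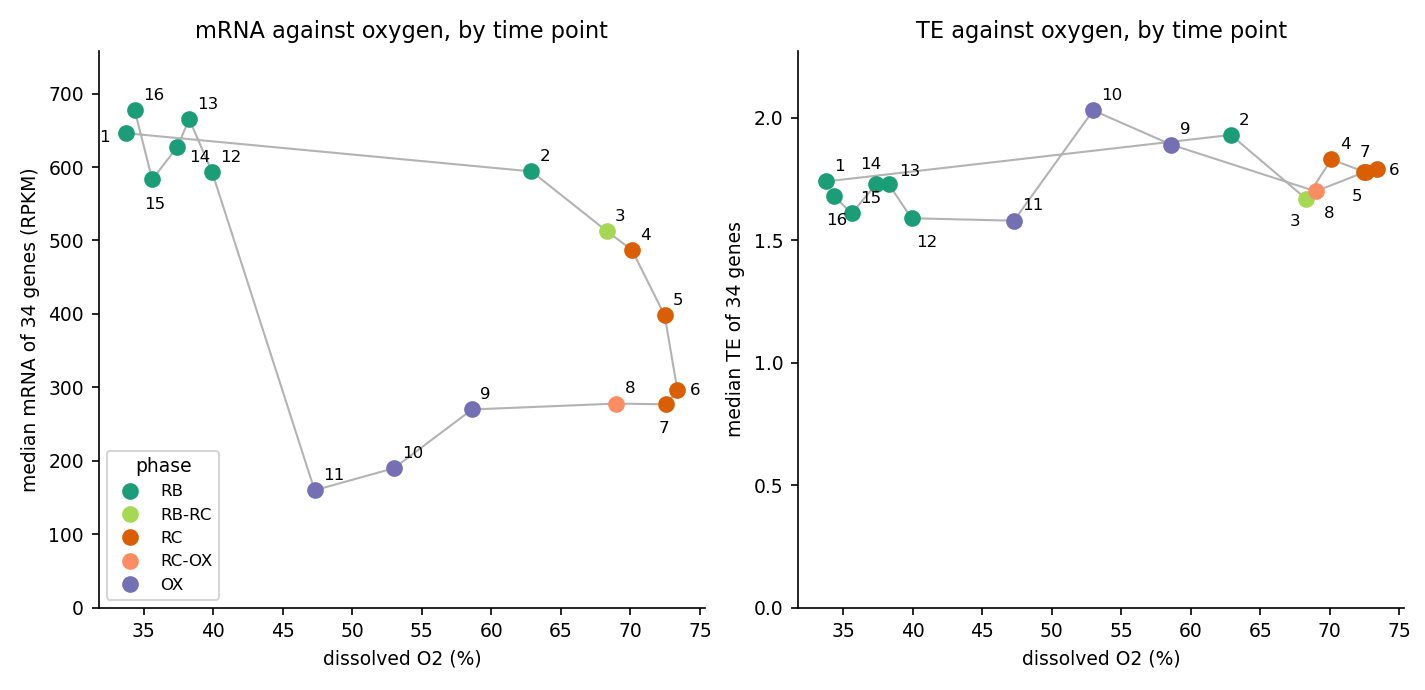
Median mRNA (RPKM, left) and median TE (right) of 34 genes against dissolved oxygen (percent). Points are the 16 time points, numbered, coloured by phase and joined in order of sampling. The mRNA panel shows a loop, with 594 RPKM at time point 2 and 270 RPKM at time point 9 at similar oxygen, while TE stays between 1.58 and 2.03.

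Amino acid starvation moved the complexes in different directions. Values below are from the 4 strains harvested with CHX, tested with edgeR's quasi-likelihood test with each strain's pair as a block and Benjamini-Hochberg adjustment over 5064 genes. These strains differ in genotype and each has 1 culture, so p-values measure the spread between these strains. Of the 35 genes tested, mRNA rose in 17 and fell in 10, against 42.1% and 38.1% of all genes. Footprints rose in 23 and fell in 5, against 39.8% and 36.1% of all genes. TE rose in 15 and fell in none, against 17.2% and 23.7% of all genes. An unadjusted p under 0.05 for TE was found in 18 of the 35, a share near that of all genes (2535 of 5064). The 35 genes had a median log2 change in mRNA of 0.12, beside 0.03 over all genes tested. In footprints it was 0.44, beside 0.06, and in TE 0.25, beside −0.01.

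Without yJW1862, 8 of the 35 genes were called higher in TE (10.3% of all genes), and without yJW1863, 2 were called lower in footprints (31.8% of all genes). With the block dropped, 10 were higher in mRNA (34.2% of all genes), 14 higher and 3 lower in footprints (32.4% and 30.3% of all genes), and 4 higher in TE (5.63% of all genes).

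**Figure D3:**
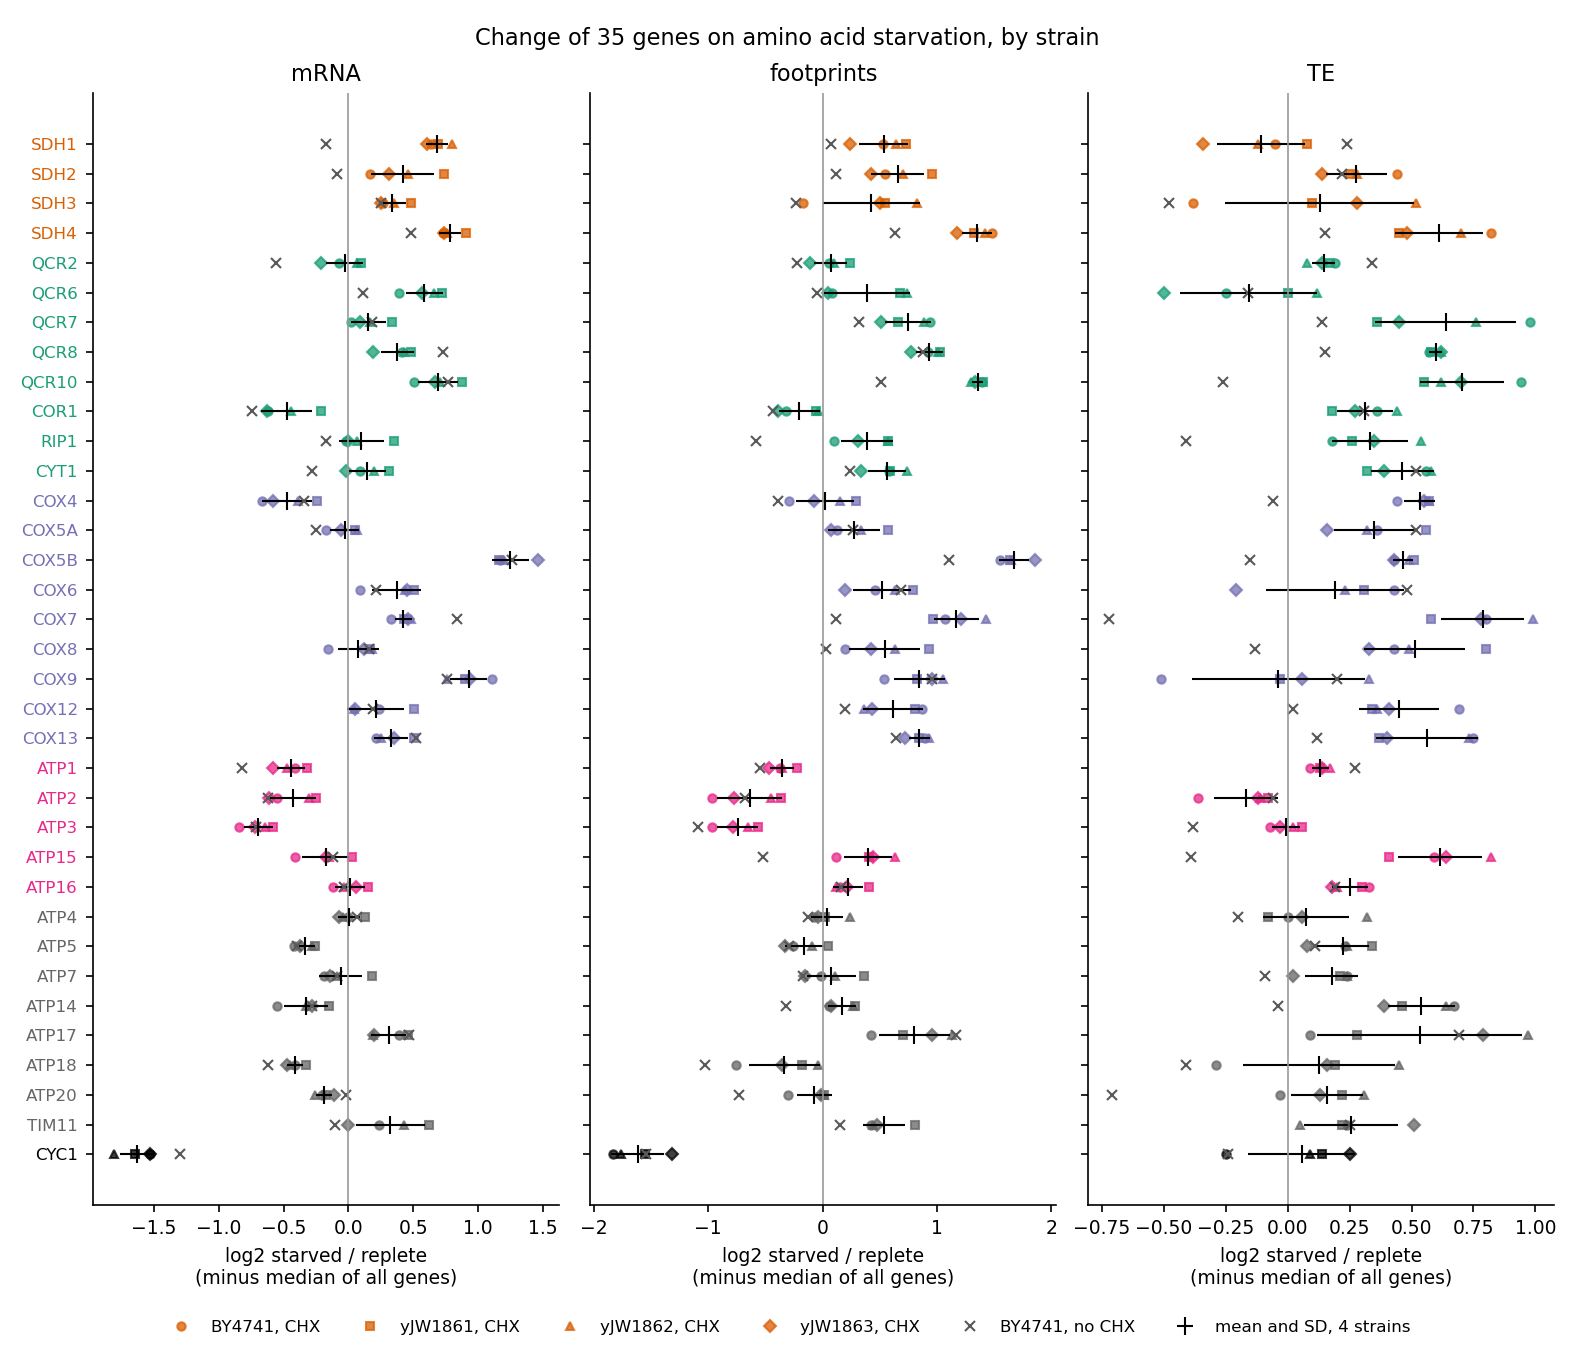
Log2 change of mRNA, footprints and TE, starved over replete, after subtracting the median of all genes, for 35 genes coloured by complex. Symbols are the 4 strains with CHX, vertical bars and lines their mean and SD, and crosses the BY4741 pair without CHX. CYC1 stands at the lower end in mRNA and footprints and COX5B at the upper end, complex II lies right of 0 in mRNA in all 4 strains, and most genes lie right of 0 in TE with CHX.

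All 4 mRNAs of complex II rose, against 42.1% of all genes. SDH4, a membrane anchor, had 110, 105, 104 and 99.4 mRNA RPKM in starved BY4741, yJW1861, yJW1862 and yJW1863, against 58.4, 48.6, 53.9 and 50.7 RPKM in the replete cultures. The ranges lie far apart, and the log2 change was 0.81 ± 0.06 (SE, edgeR adjusted p = 8.4e-07). SDH1 had 67.3, 61.3, 58.1 and 52.6 RPKM in the starved cultures, against 38.1, 33.2, 29.2 and 29.3 RPKM in the replete ones, also without overlap (0.71 ± 0.05, edgeR adjusted p = 7.7e-07). SDH3, the anchor that the TIM22 translocase also uses, changed least in the complex, with 282, 274, 258 and 253 RPKM in starved against 205, 170, 177 and 181 RPKM in replete cultures (0.36 ± 0.05). SDH2 rose by 0.43 ± 0.08.

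TE in complex II was called higher in 1 of 4 genes, SDH4, against 17.2% of all genes. Its TE averaged 4.17 ± 0.223 in starved and 2.59 ± 0.345 in replete cultures (SD, n = 4 strains each), a log2 change of 0.58 ± 0.10 (SE, edgeR adjusted p = 0.00065). SDH1 had a TE of 1.80 ± 0.0925 in starved and 1.83 ± 0.231 in replete cultures, and its change of −0.14 ± 0.11 did not pass the test (edgeR adjusted p = 0.32). The footprints of all 4 genes rose, against 39.8% of all genes. The changes were 1.39 ± 0.10 for SDH4, 0.69 ± 0.10 for SDH2, 0.57 ± 0.10 for SDH1 and 0.46 ± 0.14 for SDH3.

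In complex III, mRNA rose in 5 of the 8 measured genes and fell in COR1, against 42.1% and 38.1% of all genes. QCR10, a small subunit, had 243, 228, 221 and 252 RPKM in starved BY4741, yJW1861, yJW1862 and yJW1863, against 150, 108, 118 and 135 RPKM in replete cultures, which do not overlap (0.72 ± 0.07, edgeR adjusted p = 7.5e-06). COR1, a core subunit, had 147, 168, 157 and 149 RPKM in starved against 198, 168, 186 and 195 RPKM in replete cultures. The yJW1861 values were close and the other 3 starved cultures were lower (−0.45 ± 0.07, edgeR adjusted p = 0.00025). QCR6 rose by 0.61 ± 0.06, QCR8 by 0.39 ± 0.06, QCR7 by 0.18 ± 0.06 and CYT1, cytochrome c1, by 0.17 ± 0.06. The second core subunit QCR2 and RIP1 changed by −0.00 ± 0.06 and 0.12 ± 0.06 and did not pass the test.

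TE rose in 4 of the 8 measured genes of complex III, against 17.2% of all genes. In QCR10 it was 1.36, 2.92, 3.16 and 2.78 in starved and 0.663, 1.96, 1.93 and 1.57 in replete BY4741, yJW1861, yJW1862 and yJW1863, higher in starved cells in every strain (0.67 ± 0.10, edgeR adjusted p = 0.00026). The TE levels of BY4741 stand apart from those of the other 3 strains here. The coding sequence was masked by 108 bases in BY4741 and by 33 bases in the reporter strains, a difference that both samples of a strain share. QCR7 (0.60 ± 0.12), QCR8 (0.57 ± 0.10) and CYT1 (0.43 ± 0.11) also rose in TE. QCR6 had the lowest TE of the complex, 0.326 ± 0.0521 in starved and 0.341 ± 0.0447 in replete cultures (SD, n = 4 strains each), and did not pass the test (−0.19 ± 0.15, edgeR adjusted p = 0.34).

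CYC1 mRNA fell most of all members. It had 75.2, 71.8, 62.2 and 57.4 RPKM in starved BY4741, yJW1861, yJW1862 and yJW1863, against 191, 197, 191 and 142 RPKM in the replete cultures. The groups do not overlap, and the log2 change was −1.61 ± 0.07 (SE, edgeR adjusted p = 3.8e-08). Footprints fell by the same amount, with a log2 change of −1.56 ± 0.11, and the TE change of 0.05 ± 0.13 did not pass the test.

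In complex IV, mRNA rose in 6 of 9 genes and fell in COX4, against 42.1% and 38.1% of all genes. TE rose in 7 of the 9, against 17.2% of all genes. COX7, a small subunit, had TE values of 3.54, 3.83, 5.60 and 4.27 in starved and 1.90, 2.52, 2.65 and 2.28 in replete BY4741, yJW1861, yJW1862 and yJW1863, without overlap (0.75 ± 0.11, edgeR adjusted p = 0.00031). COX4 had 78.1, 111, 107 and 112 mRNA RPKM in starved and 109, 115, 122 and 142 RPKM in replete cultures, lower in every strain (−0.44 ± 0.07, edgeR adjusted p = 0.00025). Its TE rose, with 2.43 ± 0.228 in starved and 1.58 ± 0.0876 in replete cultures (SD, n = 4 strains each), and its footprint change of 0.06 ± 0.10 did not pass the test. COX9 mRNA rose by 0.94 ± 0.07, and its TE was 0.278, 1.33, 1.52 and 2.19 in starved and 0.371, 1.33, 1.13 and 1.92 in replete cultures, with no call (−0.02 ± 0.12, edgeR adjusted p = 0.88).

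The other called mRNA changes in complex IV were COX7 (0.46 ± 0.06), COX6 (0.40 ± 0.08), COX13 (0.35 ± 0.06) and COX12 (0.23 ± 0.08). TE also rose in COX13 (0.53 ± 0.10), COX8 (0.48 ± 0.14), COX5B (0.44 ± 0.11), COX12 (0.41 ± 0.15) and COX5A (0.32 ± 0.11). COX6, which has 190 counted bases in every library, did not pass the test in TE (0.16 ± 0.14).

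In the ATP synthase, 7 of 13 mRNAs fell and 2 rose, against 38.1% and 42.1% of all genes. The 3 largest F1 subunits fell: ATP3, the rotor shaft gamma, had 183, 153, 155 and 192 RPKM in starved and 287, 199, 210 and 269 RPKM in replete BY4741, yJW1861, yJW1862 and yJW1863, without overlap (−0.67 ± 0.05, edgeR adjusted p = 2.3e-06). ATP1 (alpha) changed by −0.42 ± 0.06 and ATP2 (beta) by −0.40 ± 0.08. The small F1 subunits ATP15 (epsilon) and ATP16 (delta) did not pass the test, with −0.14 ± 0.07 and 0.04 ± 0.06.

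Among the stalk and Fo subunits, TIM11 and ATP17 (subunit f) rose. TIM11 had 128, 156, 146 and 106 RPKM in starved and 95.6, 87.9, 94.4 and 90.4 RPKM in replete cultures, without overlap (0.34 ± 0.09, edgeR adjusted p = 0.0074), and ATP17 rose by 0.33 ± 0.06. ATP18 (−0.39 ± 0.06), ATP5 (−0.31 ± 0.05), ATP14 (−0.30 ± 0.07) and ATP20 (−0.16 ± 0.06) fell, and ATP4 and ATP7 did not pass the test (0.03 ± 0.05 and −0.04 ± 0.06).

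TE rose in 3 of the 13 genes of the ATP synthase, against 17.2% of all genes. ATP15 had a TE of 2.68, 2.34, 2.71 and 3.49 in starved and 1.66, 1.72, 1.45 and 2.05 in replete cultures, without overlap (0.58 ± 0.12, edgeR adjusted p = 0.0022). ATP14 (subunit h) rose by 0.51 ± 0.10 and ATP17 by 0.51 ± 0.14. ATP2 had 1.19 ± 0.157 in starved and 1.26 ± 0.121 in replete cultures (SD, n = 4 strains each), the lowest TE change of the complex and no call (−0.20 ± 0.15, edgeR adjusted p = 0.31). Footprints of ATP1, ATP2, ATP3 and ATP18 fell, by 0.32, 0.60, 0.70 and 0.29 on the log2 scale.

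The contrast between complexes was seen in each of the 4 strains. After the median of all genes in a pair was subtracted, the median mRNA change of complex II was 0.56 ± 0.13 (SD over 4 strains), that of complex IV 0.33 ± 0.13, that of complex III 0.16 ± 0.14, that of the stalk and Fo genes −0.13 ± 0.09 and that of F1 −0.39 ± 0.14. The lowest complex II value (0.45) lay above the highest F1 value (−0.25). TE medians were positive in every complex, from 0.13 ± 0.03 in F1 to 0.46 ± 0.05 in complex IV. Without the subtraction the stalk and Fo median for mRNA was 0.08, the opposite sign, and the F1 median was −0.18.

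COX5A and COX5B encode alternative forms of the same complex IV subunit, the first used in air and the second when oxygen is scarce, and CYC1 and CYC7 are the corresponding forms of cytochrome c. COX5A lies on chromosome XIV (531725 to 532186), COX5B on chromosome IX (155222 to 155765) and CYC1 on chromosome X (526335 to 526664) of the R64 assembly. In BY4741 and CEN.PK the counts of COX5A rest on 349 uniquely mapped bases and those of COX5B on 343, and reads that fit both genes were not counted.

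COX5B mRNA rose on starvation. It had 405, 630, 653 and 419 RPKM in starved BY4741, yJW1861, yJW1862 and yJW1863, against 158, 245, 248 and 129 RPKM in the replete cultures, without overlap (1.28 ± 0.07, edgeR adjusted p = 7.6e-08). It was the largest rise among the 35 mRNAs, and without CHX the values were 536 RPKM in starved and 184 RPKM in replete BY4741. COX5A had 192, 163, 160 and 177 RPKM in starved and 189, 137, 133 and 157 RPKM in replete cultures, which overlap (−0.00 ± 0.05, edgeR adjusted p = 0.94). CYC7 rose by 2.23 ± 0.12, with 93.1 ± 35.7 RPKM in starved and 16.9 ± 4.18 RPKM in replete cultures (SD, n = 4 strains each).

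COX5B thus made up 67.9 to 80.3% of COX5 mRNA in the 4 starved and 45.2 to 65.0% in the 4 replete cultures. Over all 12 BY4741-derived samples its share was 38.8 to 80.3%, and in CEN.PK it was 1.05 to 5.15%, with 4.28 RPKM at its lowest, a median of 14.7 and 27.1 at its highest. No COX5B value of the 12 samples (106 to 653 RPKM) overlapped with a value of the cycle. CYC1 lay at 57.4 to 197 RPKM in the 12 samples and at 178 to 1643 RPKM in the cycle. Strain, medium and mode of culture differ together between these sets and cannot be told apart.

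**Figure D4:**
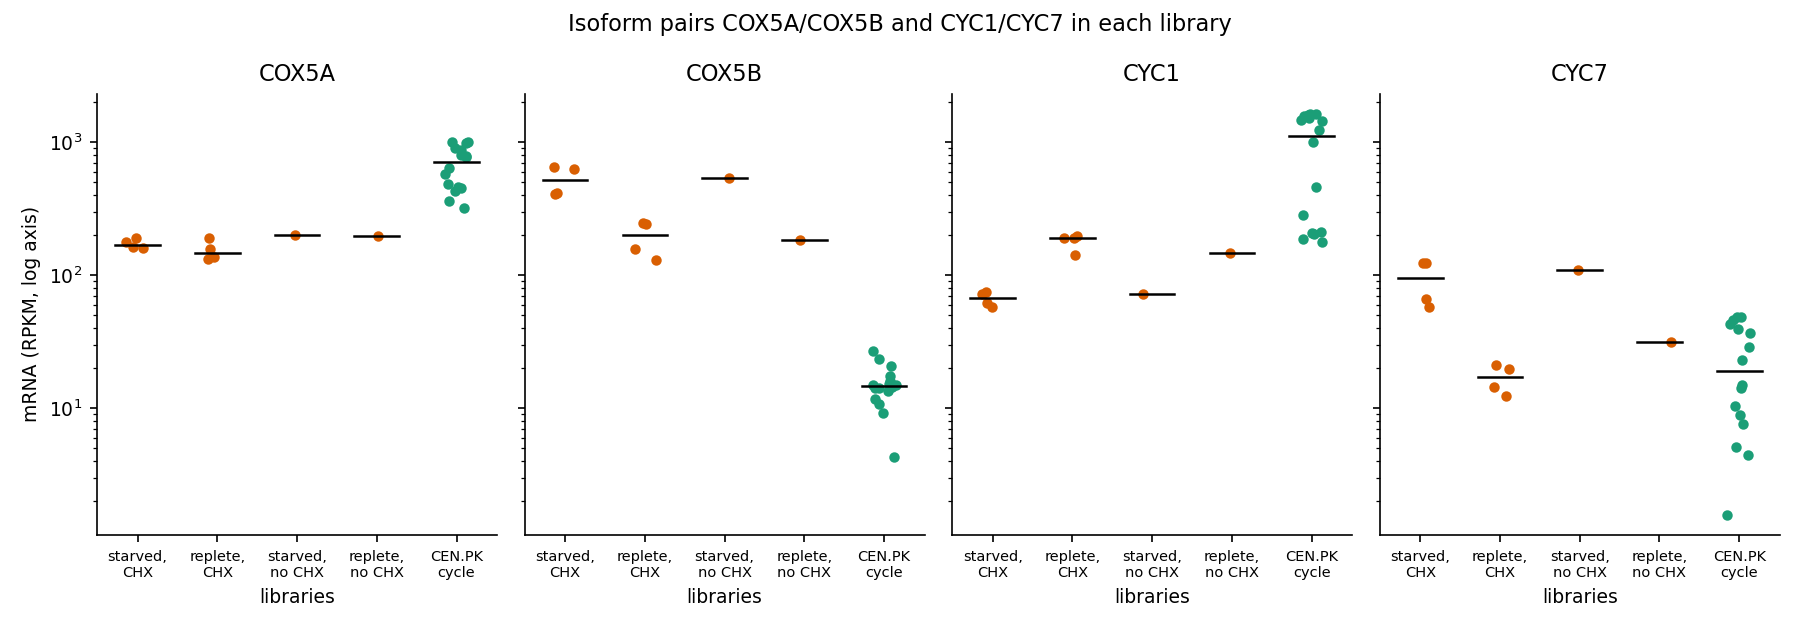
mRNA of COX5A, COX5B, CYC1 and CYC7 (RPKM, log axis) in starved and replete cultures of 4 strains with CHX, in the BY4741 pair without CHX (1 sample each) and in the 16 CEN.PK samples. Points are libraries and black lines group medians. COX5B lies at 405 to 653 RPKM in starved and 129 to 248 RPKM in replete cultures with CHX, and at 4.28 to 27.1 RPKM in CEN.PK, while CYC1 goes the other way.

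The pairs harvested with CHX had 25 of 35 genes with a log2 TE change, starved over replete, above 0 in BY4741, 31 in yJW1861, 33 in yJW1862 and 30 in yJW1863. In the BY4741 pair harvested without CHX 18 of 35 were above 0, and the median TE change was 0.02. The median mRNA change without CHX was −0.09, with 0.08 for complex II and −0.62 for F1, and the median footprint change was 0.03.

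The difference between the responses with and without CHX was tested as an interaction, in which the single pair without CHX is assumed to vary like the others. That pair and BY4741 with CHX have the 108-base mask, and the reporter strains the 33-base mask. What the mask adds to the differences was not tested. For mRNA 1 of 35 genes was called (5.71% of all genes in either direction, 4.92% with the larger response with CHX). This was SDH1, whose response with CHX was larger by 0.85 ± 0.12 on the log2 scale (SE, edgeR adjusted p = 0.0041). With CHX it had 67.3 RPKM in starved and 38.1 RPKM in replete BY4741, and without CHX 69.5 RPKM in starved and 64.6 RPKM in replete BY4741, so the starved levels were close and the replete levels were not.

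For TE 1 of 35 genes was called, which was COX7, with a response larger by 1.46 ± 0.27 with CHX (edgeR adjusted p = 0.012). Of all genes 2.56% were called in either direction, 0.139% with the larger and 2.42% with the smaller response with CHX. The TE of COX7 with CHX was 3.54 in starved and 1.90 in replete BY4741. Without CHX it was 1.33 in starved and 1.84 in replete BY4741, in the opposite order. COX7 rests on 75 counted bases in BY4741, and its call was lost without yJW1863. For footprints edgeR called 0 of 35 genes (0.515% of all genes), with 10 at an unadjusted p under 0.05 (542 of all 5044 genes), and DESeq2 called 1. The footprint differences were nevertheless above 0 in 31 of 35 genes, with a median of 0.39 beside −0.07 over all genes. Without BY4741, 2 of 35 genes were called in mRNA, 6 in footprints and 4 in TE, all with the larger response with CHX, against 5.12%, 1.25% and 0.595% of all genes in that direction. In that fit the pairs with CHX all have the 33-base mask.

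CHX and no-CHX samples of BY4741 were also set against each other directly, with 1 sample each and so without a test. Relative to the median of all genes, mRNA was lower with CHX in 35 of 35 genes in starved cells (median log2 −0.42, from −1.16 to −0.00) and in 31 of 35 in replete cells (−0.49, from −1.05 to 0.25). Before that subtraction the medians were −0.19 in both, since the median of all genes stood at 0.23 and 0.29. TE was higher by 0.74 in starved and 0.33 in replete cells after the subtraction, but −0.20 and −0.47 before it, so the sign for TE depends on the scaling.

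A log2 difference beyond 1 was found in starved cells for mRNA in 3 of 35 genes (2.74% of all genes), namely QCR8 (−1.16), COX7 (−1.02) and QCR10 (−1.02). For footprints it was found in 5 of 35 (10.8% of all genes) and for TE in 8 of 35 (14.0% of all genes), with the largest TE values in COX7 (2.36) and ATP15 (2.28), 2 of the genes with the shortest counted regions. In replete cells the counts were 1 of 35 for mRNA (SDH1, −1.05, against 4.68% of all genes), 5 of 35 for footprints (7.66% of all genes) and 8 of 35 for TE (15.5% of all genes).

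The pair labelled yJW1864 was likewise a single added pair, with the 108-base mask of BY4741 and not the 33-base mask of the reporter strains. Its median mRNA change over the 35 genes was −0.12, its footprint change 0.21 and its TE change 0.31. In the test of its response minus that of the 4 other strains, 3 of 35 mRNAs were called, all lower. Of all genes 17.1% were called in either direction, 12.9% higher and 4.15% lower. COX8, a small complex IV subunit, had 188 RPKM in starved and 295 RPKM in replete cells labelled yJW1864, against 364 ± 61.1 and 306 ± 93.6 RPKM in the other strains (SD, n = 4 strains each), a difference of −0.92 ± 0.15 (SE, edgeR adjusted p = 0.0037). TIM11 had 48.5 and 68.4 RPKM (−1.01 ± 0.24, edgeR adjusted p = 0.020), and SDH3 had 179 and 171 RPKM (−0.47 ± 0.12, edgeR adjusted p = 0.026).

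In the libraries labelled yJW1864, 10.0% of all genes were called higher in footprints and 2.83% lower (12.9% in either direction). Of the 35 genes 4 were called, again all lower. They were QCR10 (−1.13 ± 0.19, edgeR adjusted p = 0.0033), ATP15 (−1.08 ± 0.22), ATP14 (−0.79 ± 0.19) and TIM11 (−0.83 ± 0.22). QCR10 footprints were at 255 RPKM in starved and 191 RPKM in replete cells labelled yJW1864, against 599 ± 179 and 187 ± 59 RPKM in the other strains (SD, n = 4 strains each). Of these, BY4741, which has the same mask as yJW1864, had 332 and 99.6 RPKM. In TE edgeR called 0 of 35 (2.96% of all genes), with 6 at an unadjusted p under 0.05 (610 of all 5060 genes), and DESeq2 called none. Lower footprint calls were 11 without BY4741 (8.5% of all genes) and 2 without yJW1861, yJW1862 or yJW1863 (1.07%, 0.849% and 1.23% of all genes), and lower mRNA calls were 1 without yJW1862 (2.9% of all genes). The fit without BY4741 holds no other pair with the mask of yJW1864.

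Genes that serve the same complexes were taken from lists of assembly factors, regulators and related enzymes. The counts below stand beside 42.1% of all genes higher and 38.1% lower in mRNA. Of the 7 mitochondrially encoded subunits 6 could be tested, and the mRNA of all 6 rose on starvation, from 0.17 ± 0.05 for COX2 to 0.64 ± 0.08 for ATP6. Of 11 nuclear-encoded activators of mitochondrial mRNAs, 9 rose and none fell. Of 42 assembly factors, 18 rose and 8 fell in mRNA (median log2 change 0.12), a share of rises near that of all genes, with SDH6, a complex II assembly factor, highest at 1.56 ± 0.11. Of 11 enzymes of the TCA cycle, 2 rose and 6 fell (median −0.24), ACO1, aconitase, being lowest at −1.04 ± 0.10. Complex II, which also belongs to that cycle, thus moved opposite to the median of the other enzymes. The external NADH dehydrogenase isoforms went apart, with NDE2 at 2.43 ± 0.12 and NDE1 at −2.05 ± 0.06, and COX26, a later-described complex IV subunit, rose by 2.68 ± 0.13.

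The HAP2, HAP3, HAP4 and HAP5 proteins form the activator of respiratory genes, of which Hap4 is the regulatory subunit. HAP4 mRNA was 16.9 ± 4.64 RPKM in starved and 59.6 ± 8.48 RPKM in replete cultures (SD, n = 4 strains each), a log2 change of −2.03 ± 0.18 (SE, edgeR adjusted p = 4.2e-06). HAP2 rose by 0.83 ± 0.07 and HAP5 by 0.37 ± 0.09, while HAP3 fell (−0.43 ± 0.08). HAP1, the heme-dependent activator, rose by 0.25 ± 0.06, and ROX1, the repressor of hypoxic genes, fell (−0.28 ± 0.09). PUF3, which binds mRNAs of mitochondrial proteins, also fell (−0.26 ± 0.05). In CEN.PK, HAP4 ranged between 33.2 and 442 RPKM in the cycle.

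In the YMC the TCA cycle genes had a median mRNA range of 10.2-fold, and 8 of 11 were lowest at time point 11 (32.3% of all genes). Assembly factors had a median mRNA range of 4.93-fold and a TE range of 2.41-fold, wider than the 1.54-fold of the structural subunits. The 2 sets were not matched for level, and counting error widens the range of genes with few counts. The 6 measured mitochondrially encoded genes had a median mRNA range of 5.74-fold and a footprint-to-mRNA range of 16.3-fold. Their footprint-to-mRNA ratios were low, with a median of 0.0119 over the cycle for COX1 and 0.0252 for COB, beside 1.16 for COX5A and 1.39 for CYT1.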

How the data were processed

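Members and the lists of assembly factors, regulators and related enzymes were chosen with earlier results of these data known. The deposited files give raw counts per coding sequence and RPKM, both made by the authors, who per the labels used CASAVA, Bowtie 1.1.2, TopHat2 2.1.1 and the sacCer3 build and, per the methods, counted with plastid. Non-unique positions and both ends of each coding sequence were masked. Judged from the counted lengths, the ends take 108 bases in 44 libraries, but 33 bases where the strain was yJW1861, yJW1862 or yJW1863 (12 libraries). The deposited sample table of the cycle gives dissolved oxygen in percent and sampling times in hours.

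From the counts, edgeR 4.0.16 (R 4.3.3) was run with TMM factors within each library type, on genes that averaged 128 or more mRNA counts and 1 or more footprints, in starved and replete libraries of 4 strains, with Benjamini-Hochberg adjustment over all genes and a threshold of 0.05. The TE test asked whether the starvation change differed between footprint and mRNA libraries. The pairs without CHX and labelled yJW1864 were each added to the same model. The script was tested on simulated counts. In every strain 1 culture was divided for starvation and control, per the methods, and this pair entered as a block. How far the 2 samples departed from their group's mean correlated, over genes, at 0.564 to 0.797 for mRNA and 0.484 to 0.764 for footprints, to which the shared mask may add.

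From the deposited RPKM, TE is footprint over mRNA RPKM, and log2 ratios had the median of all genes passing the minimums subtracted. The files share 7132 genes, 784 dubious ORFs were left out, and 6048 identifiers matched the RefSeq table (R64), which gave coordinates. Per-sample values are given for COX5A, COX5B and CYC1, for the highest and lowest mRNA and TE change of each complex, for the widest and narrowest ranges in the cycle, and for the called interactions with the smallest p. COX9, COX13, ATP20 and TIM11 in the cycle, and QCR8, were named after their values were seen. Alternatives were RLE factors, DESeq2 1.42.0, other minimums, no block, each strain left out, no subtraction, TMM-scaled counts, other definitions of the range and removal of time point 11. Tables were handled with pandas 2.3.3 in Python 3.11.15, and figures with matplotlib 3.10.9.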

Additional observations from a re-analysis of the deposited data

Results flagged for a closer look

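In 105 groups of 4 strains (35 genes, 3 measures), 7 had 1 strain far from the other 3, where chance gives about 5% of groups. For mRNA, COX5B changed by 1.46 in yJW1863 (1.16 in yJW1861, 1.17 in BY4741 and a like value in yJW1862), COX6 by 0.09 in BY4741 (0.44 to 0.51) and SDH4 by 0.91 in yJW1861 (0.73 to 0.76), all as log2 starved over replete. For footprints, ATP20 changed by −0.30 in BY4741 (−0.01 to 0.01) and TIM11 by 0.81 in yJW1861 (0.42 to 0.48). For TE, ATP2 changed by −0.36 in BY4741 (−0.12 to −0.08) and ATP7 by 0.02 in yJW1863 (0.21 to 0.24).

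The starvation response differed between groups by edgeR's interaction test in 9 cases. With CHX minus without CHX, the log2 difference was 0.85 for SDH1 mRNA and 1.46 for COX7 TE. For the pair labelled yJW1864 minus the other 4 strains, it was −0.92 for COX8, −0.47 for SDH3 and −1.01 for TIM11 in mRNA, and −1.13 for QCR10, −0.79 for ATP14, −1.08 for ATP15 and −0.83 for TIM11 in footprints. Each rests on 1 added pair, and the cause was not tested.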

How the results depend on the processing

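Depth put no measured member but COX5B in CEN.PK (50 to 276 mRNA counts) below the minimums, while the mask left the shortest genes with under 100 counted bases. Some footprint counts were low, with 70 for CYC1 and 73 for COX9 in starved BY4741 with CHX. COX9 had 87 in replete BY4741 without CHX. Without the replicate block, 10 members were called higher in mRNA (34.2% of all genes). In footprints 14 were higher (32.4%) and 3 lower (30.3%), and in TE 4 were higher (5.63%). In the CHX interaction 0 remained higher in mRNA (0.813% of all genes) and 0 in TE (0%). In the yJW1864 interaction 1 remained lower in mRNA (0.415%) and 0 in footprints (0.0593%). DESeq2 called 2 (mRNA), 1 (footprints) and 2 (TE) higher in the CHX interaction, against 5.55%, 0.694% and 0.515% of all genes. RLE factors gave 2 higher in TE, against 0.218% of all genes. With each strain left out in turn, 2 to 4 members were lower in starvation footprints (31.8 to 37.1% of all genes). In starvation TE, 8 to 14 were higher (10.3 to 16.6%). Higher in the CHX interaction were 1 to 2 in mRNA (3.09 to 5.12%), 0 to 6 in footprints (0 to 1.25%) and 0 to 4 in TE (0.0397 to 0.595%). Lower for yJW1864 were 1 to 4 in mRNA (2.9 to 5.08%), 2 to 11 in footprints (0.849 to 8.5%) and 0 to 1 in TE (0.0198 to 0.89%). In footprints 0 to 1 were higher for yJW1864 (7.57 to 15.4%).

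Without subtraction of the median of all genes, median log2 changes on starvation were 0.76 (complex II), 0.36 (III), 0.53 (IV), −0.18 (F1), 0.08 (stalk and Fo, reversed), −0.04 (V) and 0.30 (all members) for mRNA, 0.98, 0.84, 0.94, −0.02, 0.40, 0.34 and 0.71 for footprints in the same order, and 0.55 (IV), 0.22 (F1), 0.30 (stalk and Fo), 0.26 (V) and 0.40 (all members) for TE. Time point 11 over 4 gave −1.74 (footprints) and −0.22 (TE). CHX over no CHX gave −0.19 (mRNA), −0.57 (footprints) and −0.20 (TE, reversed) in starved cells, and −0.19, −0.65 and −0.47 (TE, reversed) in replete cells. Subtraction itself moves these values by the median of all genes. Scaled to that median in each sample, the Spearman coefficients with oxygen were −0.17 for footprints and 0.76 for TE. Of all values for sets of genes, 265 stayed the same, 53 moved and 3 reversed. Of the calls for single genes, 606 were kept, 105 were lost and 0 reversed. Calls gained under another setting are not in these numbers.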
